A study of Homo sapiens with 24 samples.

Results

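The TRIM family was followed across 24 RNA sequencing libraries of BT549, a mesenchymal human line from a triple negative breast cancer. Members were all genes whose symbol is TRIM with a number and at most 1 letter, with TRIM17 left out, and 47 such genes were found among the 18154 genes of the 3 deposited tables. Of these, the knockdown files measured 44, the inhibitor files 47 and the MB-3 files 32, and those 32 were in all 3. The libraries formed 8 groups of 3. The knockdown set cells transfected for 72 h with pooled siRNAs that target MYC (siMYC) against siCtl, a control whose sequence and time are not given. The inhibitor experiment had 4 arms: KJ-PYR-9 with an agent labelled DEX (KJ-PYR-9+DEX), KJ-PYR-9 alone, DEX alone, and vehicle (VEH). KJ-PYR-9, which blocks MYC, was used at 40 µM for 3 h, and the dose of DEX is not given. The MB-3 experiment set MB-3, which blocks the acetyltransferase GCN5, at 100 µM for 3 h (MB3) against a separate vehicle group (VEH2). KJ-PYR-9 and MB-3 were dissolved in DMSO per the labels. All groups were 1 cell line in culture, and the titles number the 3 libraries of a group as biological replicates without saying how they were grown apart, so p-values measure the spread between these libraries.

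TRIM proteins carry a RING finger, B-box zinc fingers and a coiled coil, followed by a C-terminal part that differs between members, most often a PRY-SPRY domain that recognises a target. Most are ubiquitin ligases, which take ubiquitin from an E2 enzyme and pass it to a substrate. A group of members is transcribed in response to interferon, and several of these restrict viruses or tune the RIG-I pathway, while others act in transcription, on microtubules or at cell membranes. A list of 12 interferon-inducible members was used here: TRIM5, TRIM6, TRIM14, TRIM21, TRIM22, TRIM25, TRIM26, TRIM31, TRIM34, TRIM38, TRIM56 and TRIM69. TRIM31 and TRIM34 were in none of the 3 tables, and TRIM38 stayed under the mean of 10 normalized counts that a gene needed to be tested.

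The promoters of the members that rose in siMYC are shown first because interferon-inducible genes are known for the interferon-stimulated response element, whose core several of them hold. The core was searched as GAAANNGAAA on both strands, from 250 bases before to 50 bases after the RefSeq start on GRCh38.p14, and overlapping matches were counted. It was in 3.57% of 35116 promoters and in 4.38% of 27305 genes. Of the 10 members that rose in siMYC, 7 had an entry, and 5 of the 7 held the core: TRIM5, TRIM14, TRIM21, TRIM26 and TRIM69. TRIM8, TRIM16L and TRIM22 had none in the table. Among the 24 members with an entry that were tested and did not pass, 3 held it, TRIM2, TRIM16 and TRIM44. The 250 bases before the start of 4 members that rose, and of TRIM44 for contrast, are printed 5′ to 3′ on the strand of the gene, with the core in capitals, where TTTC opens the core read on the other strand.
TRIM5 (chr11:5685075-5685324, minus strand): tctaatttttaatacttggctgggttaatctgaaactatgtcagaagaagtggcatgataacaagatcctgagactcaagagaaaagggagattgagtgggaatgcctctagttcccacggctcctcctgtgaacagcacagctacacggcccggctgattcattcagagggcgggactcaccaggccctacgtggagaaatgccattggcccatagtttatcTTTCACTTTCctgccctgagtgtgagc
TRIM14 (chr9:98119223-98119472, minus strand): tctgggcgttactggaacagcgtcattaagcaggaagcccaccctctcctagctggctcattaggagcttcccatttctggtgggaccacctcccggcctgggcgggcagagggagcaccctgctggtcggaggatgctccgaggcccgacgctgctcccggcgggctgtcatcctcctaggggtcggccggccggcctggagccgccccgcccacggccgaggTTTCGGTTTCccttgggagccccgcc
TRIM26 (chr6:30213407-30213656, minus strand): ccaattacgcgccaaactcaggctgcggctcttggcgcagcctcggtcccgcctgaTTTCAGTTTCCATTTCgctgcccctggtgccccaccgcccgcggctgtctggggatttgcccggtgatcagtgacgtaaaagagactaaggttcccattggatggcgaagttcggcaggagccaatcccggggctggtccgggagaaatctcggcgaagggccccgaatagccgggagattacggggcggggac
TRIM69 (chr15:44736278-44736527, plus strand): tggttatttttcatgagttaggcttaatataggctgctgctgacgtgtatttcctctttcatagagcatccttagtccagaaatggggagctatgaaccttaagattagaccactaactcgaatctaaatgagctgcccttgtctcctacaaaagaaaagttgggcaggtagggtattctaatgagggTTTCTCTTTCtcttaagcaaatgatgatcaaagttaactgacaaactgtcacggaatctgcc
TRIM44 (chr11:35662525-35662774, plus strand): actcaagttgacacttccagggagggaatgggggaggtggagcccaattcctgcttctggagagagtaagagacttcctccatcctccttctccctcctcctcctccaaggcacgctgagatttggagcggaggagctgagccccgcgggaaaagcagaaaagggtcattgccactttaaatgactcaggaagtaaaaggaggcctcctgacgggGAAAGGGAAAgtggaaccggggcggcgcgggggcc
The core began 27 bases before the start in TRIM5, 26 in TRIM14, 62 in TRIM69 and 35 in TRIM44, and TRIM26 held 2 overlapping cores at 194 and 188 bases. The cores of TRIM21 lay after its start and are not printed. The gamma-activated site core, searched as TTCNNNGAA, was in 0 of the 7 and in 5 of the 24, against 9.38% of all genes. The E-box CACGTG, the letters that MYC and MAX are known to bind, was in 1 of the 7 (TRIM25) and in 2 of the 24 (TRIM46 and TRIM66), against 8.77% of all genes. These matches describe letters in a window and say nothing of which factor was bound.

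Values are read counts per gene that the authors normalized for depth, separately in the 3 experiments, so no test crosses experiments. Libraries of the knockdown held 18.77 to 24.15 M recovered reads, those of the inhibitor experiment 5.582 to 30.76 M and those with MB-3 or its vehicle 8.306 to 19.96 M. DEX 1 stood apart, with the lowest depth and 26.04% of its reads in features without a gene symbol, against 1.618% to 8.722% in the other inhibitor libraries. MYC, the targeted gene, had 1655, 1789 and 1710.3 normalized counts in siMYC and 2313, 2269 and 2138 in siCtl. All siMYC libraries were below all siCtl libraries, with a log2 fold change of -0.38 ± 0.11 (SE), but MYC did not pass the test (limma adjusted p = 0.0587). The mesenchymal marker VIM was 23425 to 29321 in siMYC and 21251 to 23489.6 in siCtl, and the leukocyte marker PTPRC 14.8 to 32.7 in siMYC and 20.9 to 39.2 in siCtl, and neither of the 2 leukocyte markers tested was called. ESR1, EPCAM and CD3E were in none of the 3 tables. Other markers moved in the same comparison as the TRIM rises. CDH1, an epithelial cadherin, was 269 to 522 in siMYC and 61.0 to 110.1 in siCtl, and ERBB2 1717 to 2099.7 in siMYC and 1121 to 1405 in siCtl. Both rose (log2 fold changes of 2.04 and 0.65) and were the 2 tested of 5 genes listed as low in triple negative lines. PDGFRA, the only fibroblast marker of 3 that was tested, was 129.8 to 170.3 in siMYC and 59.4 to 90.5 in siCtl and rose by 1.14 on the log2 scale. Of 6 genes known to be expressed in BT549, FN1 rose by 1.18 and the other 5 were not called, with ZEB1 at -0.54. Of all genes tested there, 11.4% were called higher and 4.78% lower. Markers moved in the inhibitor experiment too. Of the same 6 genes, 5 rose in KJ-PYR-9 against VEH, 3 in DEX against VEH and 2 in KJ-PYR-9+DEX against VEH. The shares of all genes called higher were 25.4%, 9.5% and 18.4%. In KJ-PYR-9+DEX against DEX 2 rose and 3 fell, the 1 leukocyte marker tested rose and 1 of the 3 fibroblast markers fell. In that comparison 33.6% of all genes were called higher and 35.1% lower. The leukocyte marker was CD14, at 3 to 25 reads per library there. Of the 2 tested genes listed as low in triple negative lines, 1 rose in each of these comparisons except DEX against VEH, where 0 were called. No marker tested in MB3 against VEH2 was called. The part of these markers in the TRIM results was not tested.

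In control cells the family spanned several orders of magnitude, here given as normalized counts per kilobase of exon. TRIM28, the corepressor that KRAB zinc finger proteins recruit to chromatin, led in all 3 controls, with 2548 ± 238 in siCtl, 1816 ± 212 in VEH and 1956 ± 93.7 in VEH2 (SD, n = 3 each). The next in siCtl were TRIM8 at 303 ± 14.7 and TRIM26 at 258 ± 15.7, and in VEH TRIM25 at 269.9 ± 30.9 and TRIM26 at 246 ± 5.28, where the neighbours lay within or close to each other's spread. At the low end TRIM22 had 0.874 ± 0.444 and TRIM38 0.227 ± 0.121 per kilobase in siCtl. Of the 7 members of the inhibitor table under the mean of 10, TRIM38, TRIM67, TRIM68, TRIM71, TRIM72 and TRIM73 were at most 15.7 normalized counts in any library, and TRIM61 was 12.2 to 15.7 in DEX and 0 to 3.05 in VEH.

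In siMYC 10 of the 42 members tested rose against siCtl and 0 fell (limma, Benjamini-Hochberg adjusted p under 0.05 over all genes). Of all genes tested, 11.4% were called higher and 4.78% lower. The 9 tested interferon-inducible members held 8 of the 10 rises, with a median log2 fold change of 1.73, against 0.04 over the other 33 members and 0.05 over all genes. The groups of all 9 did not overlap, where 43.7% of all genes did not overlap. TRIM22 is among the 9 and among the 8 rises, and it passed the filter only through its siMYC values. For the whole family 21 of 42 did not overlap. In these bulk libraries a change in the number of cells that express a gene and a change in RNA per cell cannot be told apart.

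TRIM22, a nuclear antiviral member, changed most. It had 415, 121 and 978 normalized counts in siMYC, against 6.92, 2.18 and 6.69 in siCtl, which rest on 2 to 8 reads per siCtl library. Every siMYC library was far above every siCtl library, but the siMYC libraries differed widely among themselves, and the rise of 5.99 ± 0.76 (log2, SE) has a wide error (limma adjusted p = 0.0101). TRIM14, a member without a RING finger that works as an adaptor beside MAVS at mitochondria, had 2611, 2207 and 3537 in siMYC and 499, 427 and 365 in siCtl. The rise was 2.68 ± 0.21 (log2, SE), with limma adjusted p = 0.00551, and the groups did not overlap. TRIM21, the cytosolic Fc receptor that marks antibody-coated virus for degradation, had 786, 600.1 and 857 against 191, 184 and 161 and rose by 2.05 ± 0.17 (log2, SE), with limma adjusted p = 0.00551.

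TRIM5, which recognises retroviral capsids, had 277, 168 and 416 normalized counts in siMYC and 80.0, 53.4 and 73.6 in siCtl. All 3 siMYC libraries were higher, by 1.97 ± 0.34 (log2, SE; limma adjusted p = 0.0175), and the call was lost without siCtl 2 or without siCtl 3. TRIM69, which restricts vesicular stomatitis virus, had 1106, 882 and 1243 against 339, 314 and 308 and rose by 1.73 ± 0.16 (log2, SE), with limma adjusted p = 0.00551. TRIM25, the ligase that acts with RIG-I, had 4824, 4675 and 5831 in siMYC and 2329.8, 2055 and 2147 in siCtl, a rise of 1.23 ± 0.14 (log2, SE) with limma adjusted p = 0.00806.

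The 2 smallest rises of the list were those of TRIM26 and TRIM56. TRIM26, encoded in the MHC region, had 2297, 2225 and 2825 in siMYC and 1069, 1115 and 1204 in siCtl, a rise of 1.11 ± 0.14 (log2, SE; limma adjusted p = 0.00989). TRIM56, an RNA-binding antiviral ligase, had 3711, 3922 and 4599 against 2863, 2656 and 2526. It rose by 0.60 ± 0.13 (log2, SE; limma adjusted p = 0.031), a call that was lost without siMYC 3 or without any of the 3 siCtl libraries. TRIM6, a ligase that activates IKBKE, had 232, 332 and 252 in siMYC and 147, 156 and 212 in siCtl, and its groups did not overlap, yet at 0.66 ± 0.20 (log2, SE) it did not pass (limma adjusted p = 0.0678). TRIM38, which was too low to be tested, had 7.92, 4.37 and 27.8 against 1.98, 1.09 and 3.35.

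**Figure D1:**
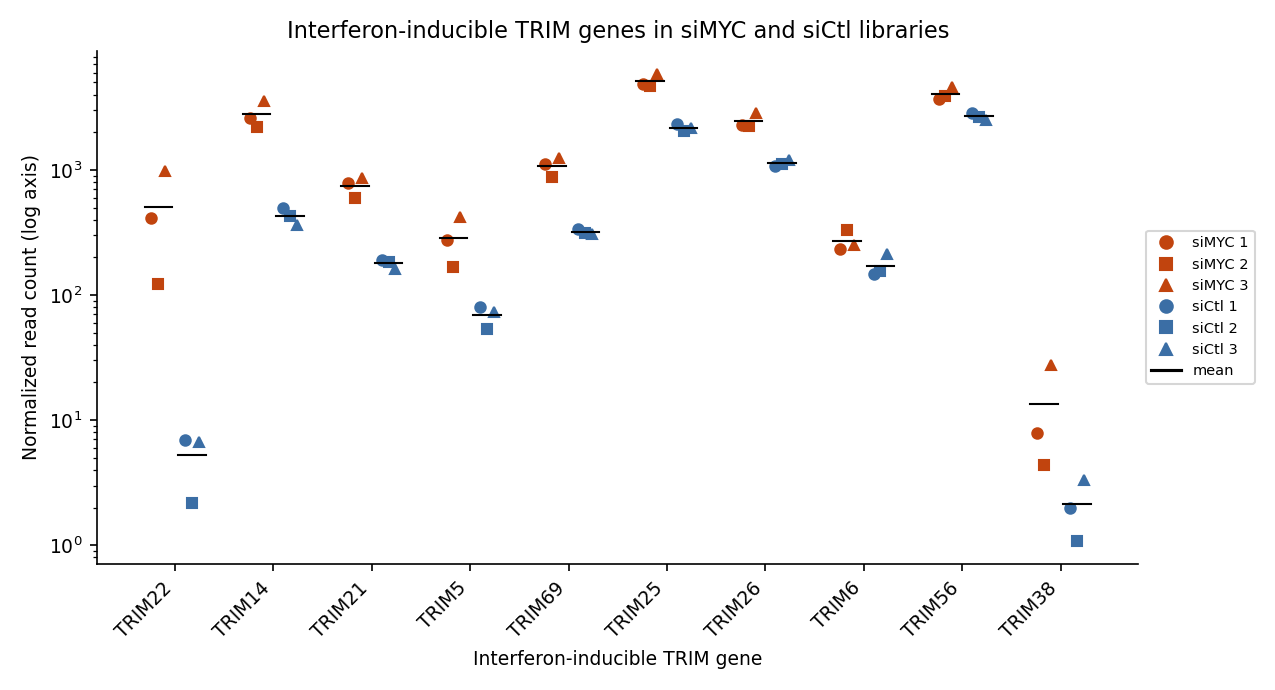
Normalized read counts, on a log axis, of the 10 interferon-inducible members in the knockdown table, with siMYC libraries to the left of siCtl libraries and a bar at each mean. No siMYC library of any of the 10 overlaps a siCtl library, and siMYC 3 holds the highest siMYC value of all 8 members that were called.

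The 8 called interferon-inducible members varied together among the siMYC libraries: siMYC 3 was highest in 8 of 8 and siMYC 2 lowest in 7 of 8. The 11 called interferon pathway genes followed the same order, highest in siMYC 3 in 9 and lowest in siMYC 2 in 10. TRIM6, tested but not called, did not follow it, with siMYC 2 highest and siMYC 1 lowest. Outside the list, TRIM16L was also highest in siMYC 3, and TRIM8 was highest in siMYC 2. The share of all genes with this order was not counted. Of the 19 genes of the interferon pathway list that were tested, 11 rose and 0 fell. STAT2, a factor that carries the interferon signal, rose by 2.49 ± 0.25 (log2, SE; limma adjusted p = 0.00664). IRF7, which amplifies interferon production, rose by 2.82 ± 0.21 (log2, SE; limma adjusted p = 0.00551), and the sensors DDX58 (RIG-I) and IFIH1 by 2.67 and 3.42 (limma adjusted p = 0.0176 and 0.0124). The receptor chains IFNAR1 and IFNAR2 gave 0.27 and 0.35 and did not pass. The interferon genes IFNB1 and IFNL1 to IFNL3 were not tested.

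Among the 19 ubiquitin partners of the list, 3 rose and 1 fell. UBA7 and UBE2L6, the E1 and E2 enzymes of the ubiquitin-like modifier ISG15, rose by 3.29 (limma adjusted p = 0.00855) and 3.36 (limma adjusted p = 0.00551) on the log2 scale. The E2 enzymes that TRIM ligases commonly use stayed closer to the controls, from -0.35 for UBE2K to 0.35 for UBE2D4 among the UBE2D, UBE2E, UBE2N, UBE2V, UBE2W and UBE2K genes, none of which passed. PML, a TRIM family gene under another name and the scaffold of nuclear bodies, rose by 1.19 ± 0.14 (log2, SE; limma adjusted p = 0.00903), with 4304, 4216 and 5479 in siMYC and 2033, 1954 and 2102 in siCtl.

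Outside the interferon-inducible list 2 of 33 members rose, and both are named here because the count is small. TRIM8, a ligase with no C-terminal recognition domain that acts on cytokine signalling, had 4133, 5832 and 5334 in siMYC and 2889, 2747 and 3027 in siCtl, a rise of 0.81 ± 0.16 (log2, SE; limma adjusted p = 0.0239). It shares 14.1% of its exon length with an antisense gene. TRIM16L, a near copy of TRIM16 whose reads may be shared with it, had 818, 855 and 1079 against 538, 565 and 585 and rose by 0.69 ± 0.14 (log2, SE; limma adjusted p = 0.0272). Both calls were lost without siMYC 3 or without any 1 siCtl library. TRIM59, a membrane-anchored member, had the lowest estimate at -1.19 ± 0.36 (log2, SE), with 148, 73.4 and 51.9 in siMYC and 177, 206 and 187 in siCtl (limma adjusted p = 0.0657). The chromatin members TRIM24, TRIM28 and TRIM33 gave -0.50, -0.19 and -0.40 (limma adjusted p = 0.0603, 0.454 and 0.244). TRIM44, whose promoter is printed above, had 2890.3, 2981 and 2777 in siMYC and 2437, 2375 and 2490.5 in siCtl, a difference of 0.24 ± 0.11 (log2, SE) that did not pass.

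The count of 10 fell to 6 without siCtl 2 or without siCtl 3, and 6 calls held without any 1 library: TRIM14, TRIM21, TRIM22, TRIM25, TRIM26 and TRIM69. Over all genes, 1679 were called higher and 707 lower, against 1369 and 1090 after quantile scaling and 1374 and 944 after TMM rescaling, and the 10 members stayed called higher under both scalings, with 1 member called lower. Leaving out 1 library moved the counts over all genes to 496 and 74 without siCtl 1, 453 and 77 without siCtl 2, 383 and 49 without siCtl 3, 444 and 76 without siMYC 3 and 2144 and 1839 without siMYC 1, where 11 members were called higher and 3 lower.

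**Figure D2:**
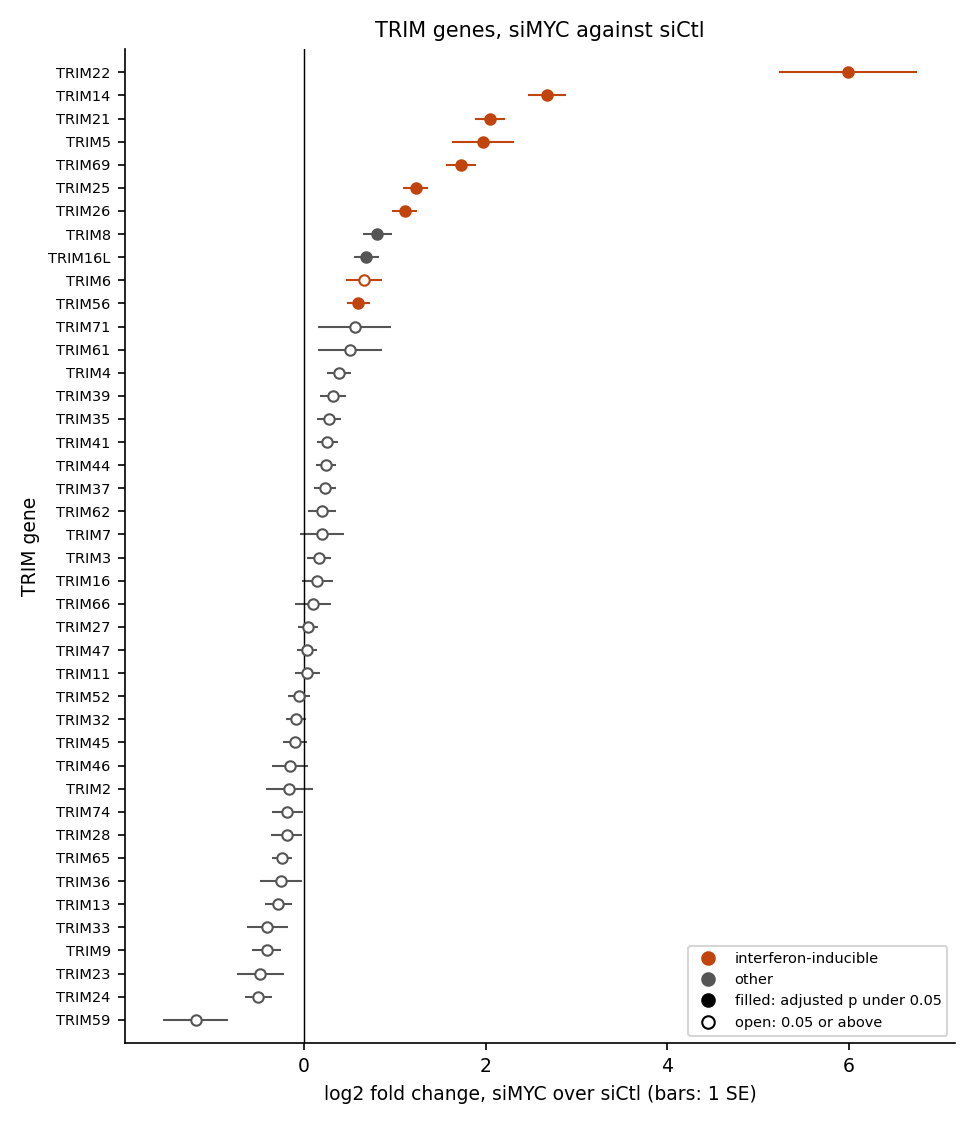
The log2 fold change of siMYC over siCtl, with 1 SE, for the 42 members tested, with interferon-inducible members in red and filled points for those called. The 7 highest members, from TRIM26 at 1.11 to TRIM22 at 5.99, are all interferon-inducible, and the other members lie between -1.19 and 0.81.

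At 3 h of KJ-PYR-9, 7 of the 40 members tested rose against VEH and 6 fell. Of all genes tested, 25.4% were called higher and 17.5% lower, and neither share of the family was above that of all genes. Only 2 of the 13 were interferon-inducible, TRIM26 and TRIM56, and they moved in opposite directions. The median log2 fold change was -0.02 over the 9 tested interferon-inducible members, 0.23 over the other 31 and 0.06 over all genes. The groups of 23 members did not overlap (64.6% of all genes).

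TRIM9, a COS box member known for its role at microtubules of neurons, had 237, 222 and 236 normalized counts in KJ-PYR-9 and 102, 98.1 and 105 in VEH. All KJ-PYR-9 libraries were above all VEH libraries, by 1.18 ± 0.18 (log2, SE; limma adjusted p = 0.00155). TRIM46, a COS box member of the axon initial segment, had 482, 498 and 537 against 319, 251 and 355, a rise of 0.73 ± 0.23 (log2, SE; limma adjusted p = 0.0256) that was lost without any of 5 of the 6 libraries. TRIM28 had 14399.5, 16119 and 16834 in KJ-PYR-9 and 6438, 8142 and 7401 in VEH and rose by 1.11 ± 0.17 (log2, SE; limma adjusted p = 0.00142). Its groups did not overlap, and after quantile scaling the rise was 0.46. TRIM3, an NHL-repeat ligase known from brain, had 388, 360.2 and 417 against 226, 211 and 222 and rose by 0.82 ± 0.19 (log2, SE; limma adjusted p = 0.00779).

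The other rises were those of TRIM62 at 0.67 (limma adjusted p = 0.0142), TRIM26 at 0.51 (limma adjusted p = 0.00896) and TRIM41 at 0.41 (limma adjusted p = 0.0458) on the log2 scale. TRIM26 had 1569, 1467 and 1586 in KJ-PYR-9 and 1052, 1087 and 1096 in VEH. Each of the 3 had groups that did not overlap.

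Both membrane-anchored members fell. TRIM59 had 15.7, 8.32 and 16.2 in KJ-PYR-9 and 69.6, 45.8 and 31.3 in VEH, a change of -1.77 ± 0.39 (log2, SE; limma adjusted p = 0.00576). TRIM13, a ligase of the endoplasmic reticulum, had 92.2, 102 and 100.5 against 286, 218 and 211 and changed by -1.26 ± 0.16 (log2, SE; limma adjusted p = 0.000593). No KJ-PYR-9 library of either reached a VEH library. TRIM2, the NHL-repeat relative of TRIM3, moved the other way from it, with 47.7, 57.7 and 47.8 in KJ-PYR-9 and 144, 132 and 116 in VEH, and changed by -1.34 ± 0.27 (log2, SE; limma adjusted p = 0.0043).

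TRIM37, the MATH-domain ligase that acts on centrosomes, had 295, 348 and 293 against 528, 511 and 497 and changed by -0.72 ± 0.19 (log2, SE; limma adjusted p = 0.0125). TRIM56 had 1189, 1108 and 1233 in KJ-PYR-9 and 1916, 1624 and 1929 in VEH, a change of -0.63 ± 0.17 (log2, SE; limma adjusted p = 0.0126). TRIM52 changed by -0.49 (limma adjusted p = 0.0183). TRIM59 shares 34.3% of its exon length with SMC4 and a further gene, TRIM52 28.5% with an antisense gene and TRIM13 17.7% with DLEU2 and KCNRG, and strand of counting is not given, so reads of these members and their partners cannot be told apart.

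The interferon-inducible members that rose most in siMYC gave no call here. TRIM22 had 225, 182 and 287 in KJ-PYR-9 and 284, 147 and 294 in VEH (log2 fold change -0.02), TRIM14 709, 773 and 922 against 667, 662 and 806 (0.17), and the groups of both overlapped. TRIM5, TRIM21, TRIM25 and TRIM69 lay between -0.12 and 0.22. Each of these members, TRIM14 and TRIM22 included, had more recovered reads per M reads in every VEH library than in any siCtl library. TRIM22 was at 12.7 to 25.2 in VEH and 0.107 to 0.342 in siCtl, and TRIM69 at 24.5 to 34.8 and 15.2 to 16.7. The part of these different control levels in the lack of calls was not tested. Of the 19 interferon pathway genes tested, 5 rose and 4 fell, with IFIT1 at -0.83 (limma adjusted p = 0.0182) and IRF7 at 0.85 (limma adjusted p = 0.0122). Among ubiquitin partners 4 rose and 6 fell, and UBE2V1, UBE2V2 and UBE2N, which together build K63-linked chains, gave -1.09, -1.17 and -0.63 (limma adjusted p = 0.00253, 0.00935 and 0.0221). The family genes MID1, which binds microtubules, and PML gave 0.54 (limma adjusted p = 0.0178) and 0.73 (limma adjusted p = 0.0169). MYC itself had 4305, 3666 and 4510.3 in KJ-PYR-9+DEX, 10272, 8283 and 11004 in KJ-PYR-9, 19573, 16916 and 18783 in DEX and 1551, 1378 and 2489.8 in VEH, so it was highest in DEX.

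Of the 13 calls, 9 held without any 1 library, and those of TRIM41, TRIM46, TRIM52 and TRIM62 did not. With replicate number as a block the count was 21 in place of 13, 13 higher and 8 lower, which added TRIM8, TRIM16L, TRIM27, TRIM35, TRIM45 and TRIM65 as higher and TRIM6 and TRIM23 as lower. The family split of 7 higher and 6 lower was 5 and 8 after quantile scaling, which ended the calls of TRIM26, TRIM41 and TRIM52, while all genes gave 3455 higher and 2380 lower against 2832 and 3120.

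After DEX 3 members rose against VEH and 8 fell, where 9.5% of all genes were called higher and 8.02% lower. The median over the 40 members was -0.26, against 0.02 over all genes. Among the tested members TRIM9 again rose most, with 412, 296 and 324 normalized counts in DEX and 102, 98.1 and 105 in VEH, by 1.74 ± 0.18 (log2, SE; limma adjusted p = 0.000189). TRIM33 and TRIM24, a pair of related transcription regulators, rose by 0.54 ± 0.14 (log2, SE) and 0.48 ± 0.14 (log2, SE), with limma adjusted p = 0.0243 and 0.0401. TRIM33 had 1647, 1297 and 1156 in DEX and 986, 937 and 872 in VEH, with no overlap.

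TRIM52 had 97.6, 81.1 and 83.5 in DEX and 168, 157 and 156 in VEH and changed by -0.87 ± 0.14 (log2, SE; limma adjusted p = 0.00302). TRIM56 had 851, 959 and 1336 against 1916, 1624 and 1929, a change of -0.82 ± 0.17 (log2, SE; limma adjusted p = 0.00989). Every DEX library of both was below every VEH library. The calls of TRIM3, TRIM24, TRIM25, TRIM27, TRIM33 and TRIM35 were lost without DEX 1. The further falls were TRIM41 at -0.70 (limma adjusted p = 0.0128), TRIM3 at -0.65 (limma adjusted p = 0.0411), TRIM25 at -0.60 (limma adjusted p = 0.0195), TRIM35 at -0.55 (limma adjusted p = 0.0377), TRIM32 at -0.51 (limma adjusted p = 0.0179) and TRIM27 at -0.44 (limma adjusted p = 0.0314).

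Of the 11 calls, 3 held without any 1 library, those of TRIM9, TRIM52 and TRIM56, and the count was 5 without DEX 1, 5 without DEX 2, 7 without VEH 1, 4 without VEH 2 and 3 without VEH 3. With the replicate block it was 20, 7 higher and 13 lower. In all, 18 members had groups that did not overlap (43.7% of all genes), and all genes gave 1294 higher and 1092 lower, against 1237 and 1845 after quantile scaling.

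With both agents 7 members rose against VEH and 7 fell, where 18.4% of all genes were called higher and 18.2% lower. TRIM9 had 401, 397 and 619 in KJ-PYR-9+DEX and 102, 98.1 and 105 in VEH, the largest rise of any tested member in the inhibitor experiment at 2.18 ± 0.18 (log2, SE; limma adjusted p = 5.58e-05). TRIM46 rose by 1.10 (limma adjusted p = 0.00865), TRIM35, which acts on the glycolytic enzyme PKM2, by 0.85 (limma adjusted p = 0.00584), TRIM3 by 0.84 (limma adjusted p = 0.0118) and TRIM28 by 0.78 (limma adjusted p = 0.00985), and TRIM8 and TRIM27 by 0.45 and 0.36. TRIM2, TRIM59, TRIM13, TRIM23, TRIM37, TRIM69 and TRIM33 fell, from -1.19 (limma adjusted p = 0.0121) to -0.49 (limma adjusted p = 0.0218). TRIM69 was the only one of the 9 interferon-inducible members called here. In 20 members the groups did not overlap (51.5% of all genes). The count was 9 after quantile scaling, which ended the calls of TRIM8, TRIM23, TRIM27, TRIM28 and TRIM59. It was 8 without KJ-PYR-9+DEX 3, 6 without VEH 1 and 9 without VEH 2, and 6 calls held without any 1 library, those of TRIM3, TRIM9, TRIM13, TRIM28, TRIM35 and TRIM46.

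**Figure D3:**
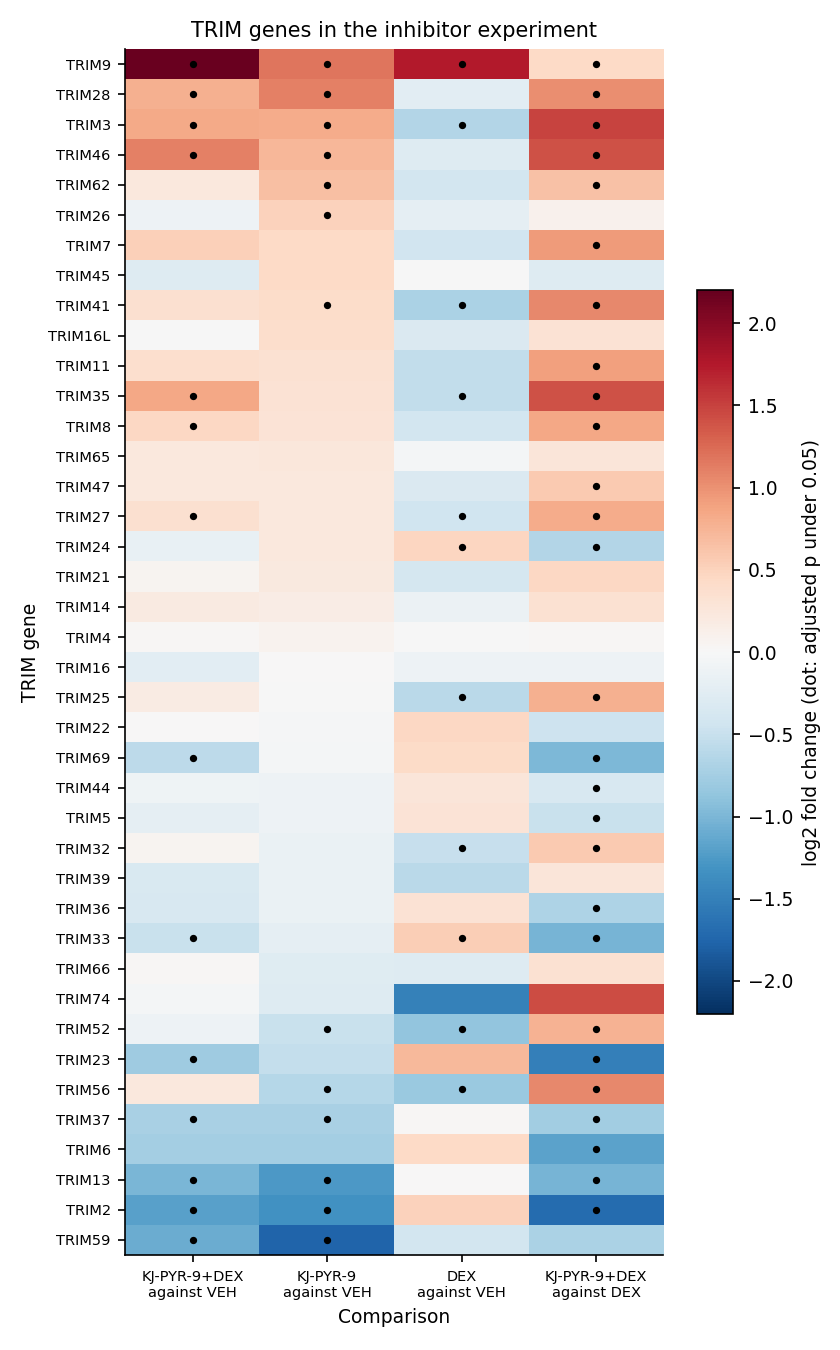
The log2 fold change of the 40 members tested in the inhibitor experiment in 4 comparisons, as a colour from blue (lower) to red (higher), ordered by KJ-PYR-9 against VEH, with a dot where a member was called. TRIM9 is called higher in all 4, and TRIM56 is called lower in KJ-PYR-9 and in DEX and higher in KJ-PYR-9+DEX against DEX.

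KJ-PYR-9 was also added on top of DEX, and that comparison held the most calls: 16 of the 40 members rose in KJ-PYR-9+DEX against DEX and 11 fell, where 33.6% of all genes were called higher and 35.1% lower. Without any 1 library, 23 of the 27 calls held, and 25 members were called without DEX 1. In 28 members the groups did not overlap (69.1% of all genes). The largest rises were TRIM3 at 1.49 (limma adjusted p = 0.000174), TRIM35 at 1.40 (limma adjusted p = 9.84e-05), TRIM46 at 1.40 (limma adjusted p = 0.000444), TRIM56 at 1.06 (limma adjusted p = 0.00038), TRIM41 at 1.06 (limma adjusted p = 0.00025) and TRIM28 at 1.02 (limma adjusted p = 0.000472). TRIM2 fell most, at -1.70 (limma adjusted p = 0.000415), with 74.2, 69.1 and 35.4 in KJ-PYR-9+DEX and 204, 232 and 137 in DEX. TRIM23, which carries an ARF domain, had 140.4, 112 and 76.6 against 406, 289 and 236 and changed by -1.50 (limma adjusted p = 0.000409). TRIM33, TRIM13, TRIM69 and TRIM24 changed by -1.03, -1.02, -0.99 and -0.65.

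Of the interferon-inducible members 2 rose in this comparison and 3 fell. TRIM25 had 2525, 2833 and 3416 in KJ-PYR-9+DEX and 1586, 1651 and 1828 in DEX, a rise of 0.78 ± 0.14 (log2, SE; limma adjusted p = 0.000803), beside the rise of TRIM56. TRIM69 had 241, 255 and 224 against 451, 468 and 509, with no overlap. TRIM6 had 44.1, 57.6 and 15.7 in KJ-PYR-9+DEX and 101, 82.0 and 59.5 in DEX (-1.18, limma adjusted p = 0.0411), and TRIM5 170.5, 157 and 179 against 268, 211 and 235 (-0.49, limma adjusted p = 0.0447). The call of TRIM5 was lost without any 1 of the KJ-PYR-9+DEX libraries, without DEX 1 or without DEX 3. That of TRIM6 was lost without KJ-PYR-9+DEX 3, DEX 1 or DEX 2. Both calls were also lost under quantile scaling. TRIM14, TRIM21, TRIM22 and TRIM26 did not pass, at 0.33, 0.45, -0.45 and 0.09. Among interferon pathway genes 5 rose and 8 fell, and among them IRF9, a transcription factor of the interferon response, gave -0.43 (limma adjusted p = 0.0246).

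The remaining rises ranged from 0.44 for TRIM9 to 0.94 for TRIM7. TRIM7, which binds glycogenin, had 60.2, 80.6 and 102 in KJ-PYR-9+DEX and 39.7, 30.1 and 56.4 in DEX (limma adjusted p = 0.00857). TRIM11 and TRIM27, PRY-SPRY ligases, rose by 0.91 (limma adjusted p = 0.00091) and 0.81 (limma adjusted p = 0.000309), and TRIM8 by 0.85 (limma adjusted p = 0.000743). The rise of TRIM9 (limma adjusted p = 0.0494) was lost without KJ-PYR-9+DEX 3, DEX 2 or DEX 3.

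This comparison and KJ-PYR-9 against VEH share no library. Of the 7 members called higher in KJ-PYR-9 against VEH, 6 were called higher again (TRIM3, TRIM9, TRIM28, TRIM41, TRIM46 and TRIM62), which is 85.7% of those 7 and 37.5% of the 16. Over all genes the shares were 72.6% and 54.9%. Of the 6 called lower, TRIM2, TRIM13 and TRIM37 were called lower again, 50% of the 6 and 27.3% of the 11, against 76% and 37.8% over all genes. TRIM56 and TRIM52, lower in KJ-PYR-9 against VEH, were higher in KJ-PYR-9+DEX against DEX.

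The KJ-PYR-9 effect with DEX minus the effect without it tests that difference directly. It was called positive in 6 members and negative in 3, where 7.15% of all genes were called positive and 9.62% negative. TRIM56 led: KJ-PYR-9+DEX held 2066, 2031 and 2339, KJ-PYR-9 1189, 1108 and 1233, DEX 851, 959 and 1336 and VEH 1916, 1624 and 1929. Each agent alone gave lower values than VEH, and both together gave values above every VEH library, and the difference of effects was 1.68 ± 0.23 (log2, SE; limma adjusted p = 0.000818). TRIM52 gave 1.25 ± 0.20 (log2, SE; limma adjusted p = 0.00196) and TRIM35 1.09 ± 0.22 (log2, SE; limma adjusted p = 0.00782).

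TRIM35 had 1165, 1267 and 1709.8 in KJ-PYR-9+DEX, 883, 915 and 1018 in KJ-PYR-9, 476, 525 and 550.1 in DEX and 680.4, 753 and 838 in VEH. TRIM33 showed the opposite order, with 672, 664 and 651 in KJ-PYR-9+DEX, 808, 789 and 839.7 in KJ-PYR-9, 1647, 1297 and 1156 in DEX and 986, 937 and 872 in VEH, and a difference of -0.83 ± 0.19 (log2, SE; limma adjusted p = 0.0143). Its values were highest in DEX and lowest with both agents, and no 2 of the 4 groups overlapped. TRIM69 and TRIM24 were also negative, at -0.94 ± 0.21 (log2, SE) and -0.88 ± 0.20 (log2, SE), with limma adjusted p = 0.0114 and 0.0132.

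The median of this difference over all genes was -0.11, and 0.03 after quantile scaling, and all genes gave 973 positive and 1310 negative calls, against 1428 and 1014 after quantile scaling and 1158 and 1029 after TMM rescaling. The 9 signs were the same under both scalings. With the replicate block 15 members were called, 8 positive and 7 negative, and without DEX 1 the count was 8.

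**Figure D4:**
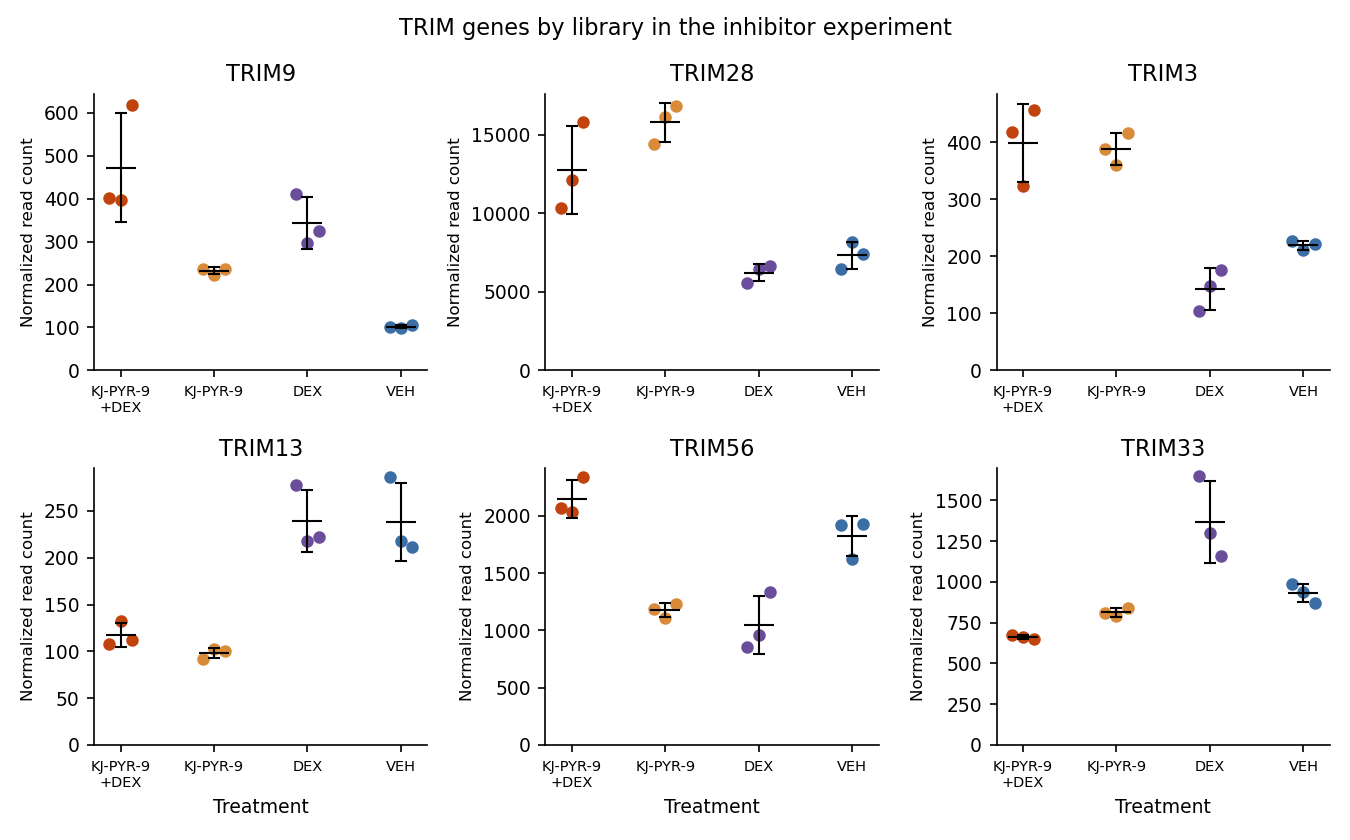
Normalized read counts of 6 members in the 12 libraries of the inhibitor experiment, on linear axes from 0, with 1 point per library and a bar at the mean with 1 SD. TRIM9 is lowest in VEH, TRIM28 and TRIM3 are high and TRIM13 is low in both groups with KJ-PYR-9, TRIM56 is low in KJ-PYR-9 and in DEX, and TRIM33 is highest in DEX.

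Members were also grouped by structure. Of the 3 NHL-repeat members tested in the inhibitor experiment, TRIM3 rose and TRIM2 fell in KJ-PYR-9 against VEH, with both agents against VEH and in KJ-PYR-9+DEX against DEX, while TRIM32 rose in the last of these alone. Of the 3 COS box members tested, TRIM9 and TRIM46 rose after KJ-PYR-9 and after both agents, and TRIM36 gave -0.15 and -0.36. Of the 4 members with a PHD finger and bromodomain, TRIM28 rose after KJ-PYR-9, TRIM24 and TRIM33 rose after DEX, and TRIM66 passed in none of the 4 comparisons of groups. Both transmembrane members fell after KJ-PYR-9 and after both agents, and none was called after DEX. In the knockdown, 2 of 5 members without a C-terminal domain rose (TRIM8 and TRIM56), and 2 of 5 without a RING finger (TRIM14 and TRIM16L). There 0 of 4 NHL-repeat, 0 of 3 COS box, 0 of 4 PHD and bromodomain and 0 of 2 transmembrane members were called. The 1 MATH, 1 ARF and 1 filamin repeat member tested were not called either. Of all genes, 11.4% were called higher and 4.78% lower in the knockdown, and these groups are small. The shares for the other comparisons are given above.

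After 3 h of MB-3, 0 of the 32 members tested were called by limma, and 0 by edgeR and 0 by DESeq2 on recovered reads. Of all genes, 0.0299% were called higher and 0.0299% lower by limma, which is 3 and 3 genes, against 8 and 8 by edgeR and 30 and 122 by DESeq2. At an unadjusted p under 0.05 there were 6 members by limma, 8 by edgeR and 7 by DESeq2, where by limma 13.7% of all genes reached it. The log2 fold changes ran from -0.37 to 0.30, and 10 members had groups that did not overlap (23% of all genes). TRIM14 had 138, 136 and 148 in MB3 and 217, 166 and 168 in VEH2, a difference of -0.37 ± 0.11 (log2, SE; limma adjusted p = 0.287). TRIM16L had 401, 412 and 419 against 304, 360.0 and 341 (0.30, limma adjusted p = 0.27). TRIM28 had 6089, 7322 and 7207 in MB3 and 7676, 8328 and 7671 in VEH2. The groups of these 3 members did not overlap, and TRIM28 gave -0.20 ± 0.09 (log2, SE; limma adjusted p = 0.378). The 6 interferon-inducible members in this table had a median of -0.08, with TRIM21, TRIM25, TRIM26 and TRIM69 between -0.08 and 0.03. TRIM5, TRIM6, TRIM22 and TRIM38 were not in this table, which holds no gene of low level, and were not analysed here.

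**Figure D5:**
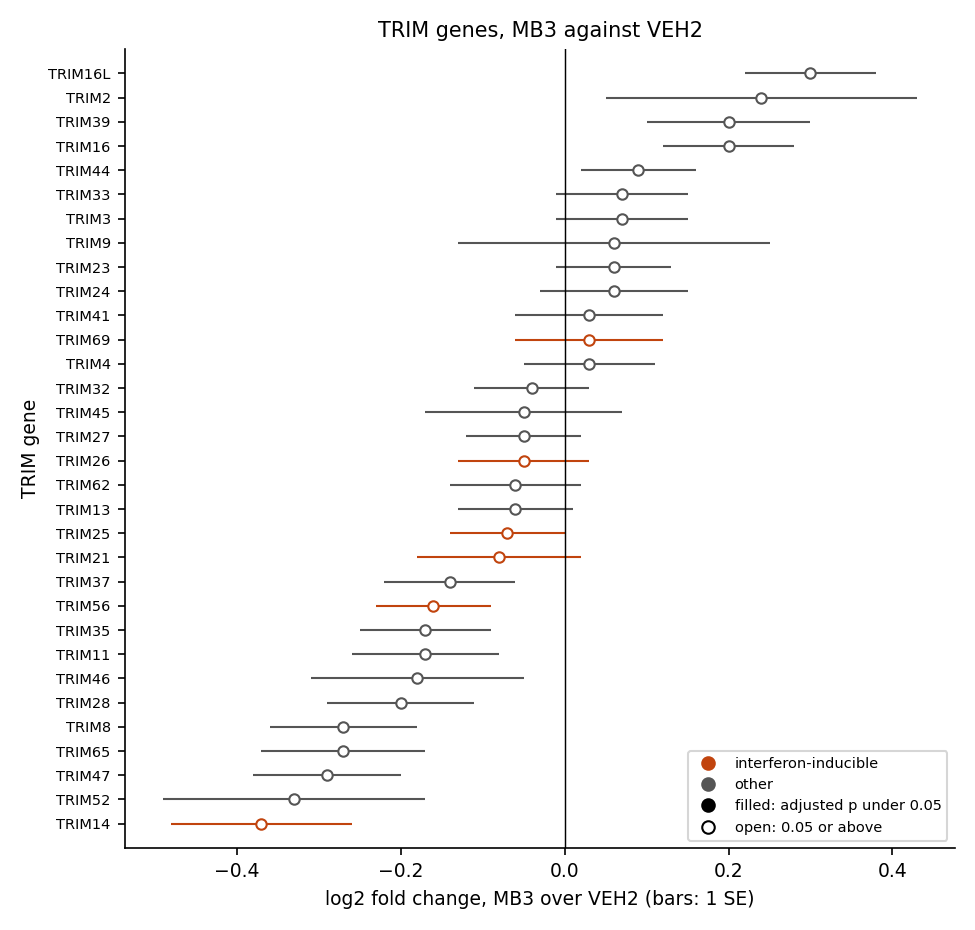
The log2 fold change of MB3 over VEH2, with 1 SE, for the 32 members tested, with interferon-inducible members in red. All points are open, since no member passed, and they lie between -0.37 and 0.30.

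On the genome the interferon-inducible members are spread over several chromosomes, with a cluster of TRIM5, TRIM6 and TRIM22 on chromosome 11. By GENCODE 29 on GRCh38, TRIM21 lies on chromosome 11, 4384897 to 4393696, minus strand, TRIM6 on chromosome 11, 5596109 to 5612958, plus strand, TRIM5 on chromosome 11, 5663557 to 5938619, minus strand and TRIM22 on chromosome 11, 5689689 to 5737089, plus strand. In GENCODE TRIM22 lies within the span of TRIM5 on the other strand. That span runs beyond the RefSeq start of TRIM5 whose promoter is printed above, and TRIM22 lies outside the part up to that start. TRIM6 shares 29.3% of its exon length with the readthrough gene TRIM6-TRIM34, so the counts of TRIM6 are less certain. Within this cluster TRIM5 and TRIM22 were called in siMYC and TRIM6 was not. TRIM21, which was called too, lies on the same chromosome but apart from the cluster. TRIM14 lies on chromosome 9, 98069275 to 98119212, minus strand, TRIM25 on chromosome 17, 56836387 to 56914080, minus strand, TRIM26 on chromosome 6, 30184455 to 30213427, minus strand, TRIM56 on chromosome 7, 101085439 to 101097967, plus strand and TRIM69 on chromosome 15, 44728988 to 44767829, plus strand. All are annotated as protein-coding, and the values are sums over each gene, with no split by exon.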

How the data were processed

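RNA of BT549 cells was depleted of ribosomal RNA, prepared with NEBNext kits and sequenced as paired ends, per the labels' protocols. Tools named in the submitters' processing notes are featureCounts, DESeq2, SAMtools and bcl2fastq, with the build GRCh38. For aligner, annotation, strandedness and versions, nothing is given in the sources used here. Deposited values are a signal, normalized read counts per gene, which the authors scaled with 1 factor per library before they deposited them. Taking out that factor gave whole reads for 100% of values within a tolerance of 0.0001. Rows of the same symbol (TRIM74) were summed, and rows without a symbol were not tested. Libraries were grouped by their labels, and MB3 1, titled MED3, by its treatment label.

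Genes with a mean of at least 10 (14788 for the knockdown, 13616 for the inhibitor and 10048 for MB-3) were tested by limma 3.58.1 (R 4.3.3) on log2(value + 1). Tests were two-sided at a Benjamini-Hochberg adjusted p of 0.05 over all genes, and the 12 inhibitor libraries shared 1 fit. Fold changes on this scale understate low genes. The alternatives were TMM and quantile scaling, a pseudocount of 5, no filter, a mean of at least 50, trended and robust variance, edgeR 4.0.16 and DESeq2 1.42.0 on recovered reads, a replicate block and leaving out each library. The code was tested on simulated data. Pairing by replicate number was checked with correlations of deviations from group means. They were 0.13 to 0.524 over 18 pairs of inhibitor libraries and 0.208 to 0.389 over 3 pairs of MB-3 libraries. Both sets thus look paired by number, from the data and not from the labels. The main tests fitted groups only and did not use this pairing, which entered only through the replicate block among the alternatives.

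The members, the gene lists and the tests were chosen with earlier results of these data known. Named with values were the tested interferon-inducible members, up to 7 called members with the largest rise and fall in each comparison (5 for the difference of effects), and TRIM24, TRIM28 and TRIM33. Any other member named was picked after its values were seen. Some listed genes are not reported here. Lists by structure share members with the interferon-inducible list. Promoters came from RefSeq (GRCh38.p14), and positions and exon lengths from GENCODE 29.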

Additional observations from a re-analysis of the deposited data

Results flagged for a closer look

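In 9 members the effect of KJ-PYR-9 with DEX differed from its effect without DEX, by a limma test of the difference itself adjusted over all genes. The differences, on the log2 scale, were 1.68 for TRIM56, 1.25 for TRIM52, 1.09 for TRIM35, 0.80 for TRIM25, 0.71 for TRIM32, 0.57 for TRIM27, -0.94 for TRIM69, -0.88 for TRIM24 and -0.83 for TRIM33. TRIM56, TRIM52, TRIM35, TRIM69, TRIM24 and TRIM33 kept the call without any 1 library. The call of TRIM25 was lost without any of 5 libraries, that of TRIM32 without KJ-PYR-9 1 and that of TRIM27 without any of 10. DEX 1, which stood apart in depth and in reads without a gene symbol, is among the libraries left out in turn, and 8 members were called without it.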

How the results depend on the processing

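The count of called members was 13 in KJ-PYR-9 against VEH and 21 with the replicate block, 11 and 20 in DEX against VEH, and 9 and 15 for the difference of the KJ-PYR-9 effects. In KJ-PYR-9+DEX against VEH it was 14, and 9 after quantile scaling. Leaving out 1 library gave 6 to 14 in siMYC against siCtl, 10 to 13 in KJ-PYR-9 against VEH, 3 to 14 in DEX against VEH, 6 to 14 in KJ-PYR-9+DEX against VEH, 24 to 29 in KJ-PYR-9+DEX against DEX, 6 to 13 for the difference of effects and 0 to 0 in MB3 against VEH2. The causes were not tested. The other settings left each count within 1.5 times. In the knockdown the numbers do not pair the libraries (3 pairs, correlations of -0.346 to -0.02, and 0 of 6 libraries correlated best with their own number), and the block gave 7 calls in place of 10, without TRIM8, TRIM16L and TRIM56. The block ended no other call, and it gave 18 calls in place of 14 in KJ-PYR-9+DEX against VEH and 33 in place of 27 in KJ-PYR-9+DEX against DEX. No call changed direction under any setting. Of the 84 calls, 50 held under all settings, 2 were lost with TMM, 10 with quantile scaling, 11 without the filter (among them TRIM3, TRIM24 and TRIM35 in DEX against VEH), 4 with edgeR, 2 with DESeq2 and 0 with a pseudocount of 5. Members at few reads (TRIM22 in siCtl, TRIM38) and the MB-3 table, which holds no low genes, limit what can be seen.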

Other observations

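The 3 control groups of the same cell line held different levels of some interferon-inducible members, given here as recovered reads per M reads because the tables were normalized separately. TRIM22 was at 0.107 to 0.342 in the 3 siCtl libraries and at 12.7 to 25.2 in the 3 VEH libraries, and TRIM5 at 2.61 to 3.95 and 12.9 to 21.6. TRIM14 was at 18.1 to 24.6 in siCtl and 57.5 to 66.8 in VEH. TRIM25 was at 101 to 115 in siCtl, 201 to 235 in VEH and 104 to 118 in VEH2. TRIM28, the most abundant member per kilobase, was at 473 to 564 in siCtl, 573 to 707 in VEH and 600.2 to 639.6 in VEH2. The knockdown used siRNAs, with 72 h given for siMYC, and the other experiments used vehicles, with 3 h given for KJ-PYR-9 and MB-3. No time is given for the control groups themselves. The experiments also differ in table and features counted, so these levels are given without a test.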
